A study of Homo sapiens with 14 samples.

Results

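The genes described here are 8 genes of FGF and PDGF signalling: the FGF receptors FGFR1, FGFR2, FGFR3, FGFR4 and FGFRL1, the PDGF receptor PDGFRA and the PDGF ligands PDGFA and PDGFC. They were chosen by name, and all probe sets annotated to them were taken, 34 of the 54675 on the array. A probe set is a group of short probes against 1 transcript region. Of these 34, 11 probe sets of 6 genes reached a log2 value of 5 on at least 3 of the 14 arrays and were tested, as were 19816 probe sets in all.

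The study overexpressed the homeobox transcription factors HOXD9 and HOXD13 in HEK293, a line of human embryonic kidney cells with an epithelial and partly neuronal profile. Its design set each HOX gene against cells that carried the vector of the same tag. The 4 groups were 3 arrays of cells with an HA-tag vector, 4 of cells with HA-tagged HOXD9, 3 of cells with a V5-tag vector and 4 of cells with V5-tagged HOXD13. All were grown in the same medium with serum, and the stable lines were selected with the drug G418. The 4 arrays of a HOX gene were 1 mixed population of resistant cells and the clones a, b and c, each picked from that population, so the 4 lines were not fully independent and a clone can carry changes of its own. The promoter that drove the transgenes is not given in the sources used here. The vector arrays were labelled as biological replicates with no word on how the cultures were separated, so p-values reflect how these particular arrays vary, which can include technical variation. The HA and V5 sets had been normalized separately, and levels are compared only within a set.

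FGF receptors are receptor tyrosine kinases that bind FGF together with heparan sulfate, pair up and phosphorylate each other, and then signal through the docking protein FRS2 to RAS and ERK and through phospholipase C gamma. FGFRL1 binds FGF but lacks the kinase. PDGF ligands are secreted dimers: PDGFA and PDGFC act mainly through PDGFRA, typically from an epithelium onto the mesenchyme beside it. In the limb bud, where the posterior HOXD genes pattern the skeleton, FGFR1 and FGFR2 carry the signal between ectoderm and mesenchyme, and FGFR3 later restrains the growth of cartilage.

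RefSeq windows of 250 bases upstream of an annotated start (build GRCh38.p14) were found for 6 of the 8 genes, and not for FGFR1 and PDGFC. The windows below lie before the outermost start of the 3 genes on which the HOXD13 results turn: FGFR3, which rose, PDGFA, which fell, and FGFR2, whose probe set 208228_s_at had the lowest adjusted p of those not called. Capitals mark every match of TTTAT or TTTAC (cores that posterior HOX proteins prefer), TATAAA (the TATA box, which always contains a TTTAT match on 1 strand) and GGGCGG (the GC box bound by SP factors), on either strand.
FGFR3, chr4:1793043-1793292, plus strand: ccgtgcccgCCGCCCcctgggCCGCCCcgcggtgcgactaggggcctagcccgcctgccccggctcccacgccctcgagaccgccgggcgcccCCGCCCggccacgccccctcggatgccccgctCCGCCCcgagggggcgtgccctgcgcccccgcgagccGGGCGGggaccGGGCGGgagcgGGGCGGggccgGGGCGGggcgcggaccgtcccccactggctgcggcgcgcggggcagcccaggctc
FGFR2, chr10:121598459-121598694, minus strand: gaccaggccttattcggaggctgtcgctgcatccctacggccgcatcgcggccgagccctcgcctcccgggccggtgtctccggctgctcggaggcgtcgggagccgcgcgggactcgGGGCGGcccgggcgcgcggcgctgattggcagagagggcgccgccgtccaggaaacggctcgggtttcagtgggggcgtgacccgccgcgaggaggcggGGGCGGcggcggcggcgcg
PDGFA, chr7:520701-520950, minus strand: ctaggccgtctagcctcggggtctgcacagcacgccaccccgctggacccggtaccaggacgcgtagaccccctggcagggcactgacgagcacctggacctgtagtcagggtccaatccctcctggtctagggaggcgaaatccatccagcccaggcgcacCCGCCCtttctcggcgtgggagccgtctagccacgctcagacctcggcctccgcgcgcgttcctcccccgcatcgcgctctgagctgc
All the capitals are GC boxes: 8 in the FGFR3 window, 2 in the FGFR2 window and 1 in the PDGFA window. The FGFR2 window holds 236 bases, since its last bases lie past the outermost start. GC content was 86.8% for FGFR3, 78% for FGFR2 and 68.8% for PDGFA. Among 35116 windows of the same length, 42.6% held GGGCGG, 32.7% TTTAT, 25.2% TTTAC and 10.7% TATAAA. Over all full windows of the 6 genes, TTTAT occurred in 2 of the 4 PDGFA windows, 1 of the 5 FGFR2 windows and each of the 2 PDGFRA windows. TTTAC occurred in each PDGFRA window and in the 1 FGFRL1 window. The FGFR3 and FGFR4 windows held neither. These matches describe the letters in the windows and show no binding.

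On the arrays the transgenes followed their labels: the HOXD9 probe set that responded lay between 2.52 and 2.83 in HA vector cells and between 6.65 and 7.76 in HOXD9 lines, and a HOXD13 probe set between 6.84 and 7.01 in V5 vector cells and between 12.24 and 12.59 in HOXD13 lines. The vector arrays were close to each other and the HOX lines were not, with a median SD over genes of 0.05 in both vector groups, 0.27 in HOXD9 and 0.26 in HOXD13. The ACTB difference between 3′ and 5′ control probe sets, a sign of RNA or labelling quality, lay within 0.0449 of its group mean on every vector array, but was 0.57 above the vector mean in HOXD13 clone c, 0.41 below it in HOXD13 clone b and 0.62 below it in HOXD9 clone a. As alternatives, each array in turn and these 3 together were left out. Of the HEK293 epithelial markers 6 of 8 passed the filter, while PAX2 did not and LHX1 was under 3 throughout. Leukocyte and endothelial markers were under 3 on all arrays (4 of 4 each), as were 6 of 8 fibroblast markers. The other fibroblast markers were COL1A1, which passed the filter with group means between 6.99 and 7.73, and LUM, which reached 3.65. The summed level of the neuronal markers was 43.0 to 43.6 in V5 vector cells and 43.1 to 47.8 in HOXD13 lines, that of chondrocyte and bone markers 28.7 to 29.3 and 27.3 to 30.8, and that of oligodendrocyte precursor markers 14.4 to 14.6 and 13.7 to 16.4; their part in the results was not tested. In such bulk samples, fewer cells of a type and less RNA per cell cannot be told apart.

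Before any comparison, the 34 probe sets showed which of these genes were measured at all. FGFR1, FGFR2, FGFR3, FGFRL1, PDGFA and PDGFC each had at least 1 probe set that passed the filter. PDGFRA, the receptor of both ligands, was near the floor: its 4 probe sets lay between 2.20 and 2.49, and none moved by more than 0.0859 over the 14 arrays. FGFR4, a receptor mainly of liver and muscle, also had 4 probe sets below the filter, between 2.16 and 3.76. Its probe set 204579_at read 2.33 on the HA-set arrays except HOXD9 clone c (2.83), 3.51 to 3.52 in V5 vector cells and 3.24 to 3.76 in HOXD13 lines, which overlap. In all, 23 probe sets did not pass, 18 of them under 3 on every array, including FGFR3 probe set 204380_s_at (2.26 to 2.31) and 8 of the 9 dim FGFR2 probe sets. A value at this floor shows that a probe set did not detect its target, not that the transcript is absent, since probe sets of a gene read different isoforms and regions. FGFR2 and FGFR3 in particular are spliced in alternative forms that differ in ligand choice, and these values do not tell the forms apart.

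**Figure D1:**
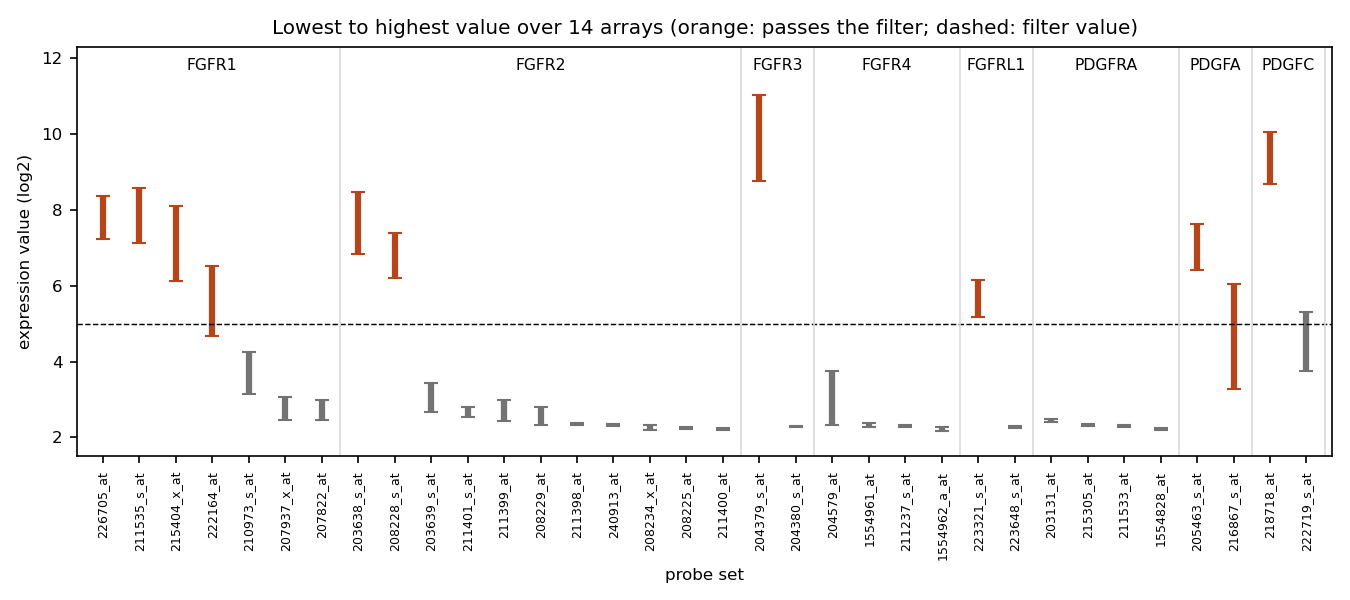
Lowest to highest expression value (log2, vertical axis) of each of the 34 probe sets over the 14 arrays, grouped by gene along the horizontal axis; orange bars passed the filter of 5 (dashed line) on at least 3 arrays and grey bars did not. The 4 PDGFRA bars lie flat between 2.20 and 2.49, and the FGFR3 bar that passed runs from 8.76 to 11.03.

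FGFR3 rose in the HOXD13 lines. Probe set 204379_s_at read 9.67, 9.59 and 9.62 in the V5 vector replicates and 10.69, 10.99, 11.03 and 10.01 in the HOXD13 mixed population and in clones a, b and c. All 4 lines lay above all 3 vectors, with clone c closest to them. The group means were 9.62 ± 0.04 (SD, n = 3) and 10.68 ± 0.47 (SD, n = 4), a log2 fold change of 1.06 (SE 0.21, 95% interval 0.61 to 1.5), or 2.08-fold, with an adjusted p of 0.00985 by limma with Benjamini-Hochberg adjustment over all 19816 probe sets. The adjusted p was 0.0522 without V5 vector replicate 2, 0.0532 without replicate 3 and 0.0568 when the V5 set was fitted alone, while the log2 fold change stayed between 1.02 and 1.22 over the 9 alternatives to the fit and was 1.28 (adjusted p 2.59e-05) without HOXD13 clone c.

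In the HOXD9 lines the same FGFR3 probe set read 8.76, 8.95 and 8.88 in the HA vector replicates and 9.03, 9.14, 9.09 and 9.49 in the mixed population and in clones a, b and c. All 4 lines were again above all 3 vectors, clone c the farthest. The difference of 0.33 (SE 0.21) did not pass the test (limma adjusted p 0.351). FGFR3 thus lay above the vectors of its own tag in all 8 HOX lines, which held for 0.621% of the probe sets tested. The HOXD13 effect exceeded the HOXD9 effect by 0.73 (SE 0.29), and this difference did not pass either (adjusted p 0.156), but did without HOXD13 clone c (0.95, adjusted p 0.00366), where 2 of the 11 probe sets were called for the difference, against 18.6% of all.

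FGFR2, the receptor of FGF7 and FGF10 in its epithelial form, was higher in most HOXD13 lines by a smaller amount. Probe set 208228_s_at read 6.80, 6.85 and 6.94 in V5 vector cells and 7.38, 7.32, 7.24 and 7.02 in the HOXD13 mixed population and in clones a, b, c in turn. The lines did not overlap the vectors, but the log2 difference of 0.37 (SE 0.11, 95% interval 0.14 to 0.61) had a limma adjusted p of 0.0509. Probe set 203638_s_at read 8.06, 8.06 and 8.15 in V5 vector cells and 8.45, 8.46, 8.46 and 8.13 in the HOXD13 lines in the same order. Here clone c lay inside the vector range, and the difference of 0.29 (SE 0.11) had an adjusted p of 0.105. Without HOXD13 clone c both FGFR2 probe sets passed, at 0.45 (adjusted p 0.00325) and 0.37 (adjusted p 0.00435), and both also passed with the ACTB difference as a covariate (adjusted p 0.0136 and 0.0195). Probe set 208228_s_at alone also passed without HOXD9 clone a (adjusted p 0.0445) or HOXD9 clone c (0.0284). HOXD9 arrays do not enter this difference, which stayed at 0.37, and leaving them out changed only the spread shared by all groups. Against the HA vectors, the HOXD9 lines differed by 0.12 (adjusted p 0.496) at 208228_s_at and by 0.13 (adjusted p 0.469) at 203638_s_at.

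FGFR1 was read by 4 tested probe sets, and none gave a call. Probe set 211535_s_at read 7.96, 7.81 and 7.91 in V5 vector cells and 8.57, 8.43, 8.53 and 7.49 in the HOXD13 mixed population and in clones a, b, c in turn. The first 3 lines were above every vector and clone c was below every vector. At 226705_at clones a and b (8.29 and 8.36) lay above the vectors (7.98 to 8.11), the mixed population (8.0) inside their range and clone c (7.47) below it. At 215404_x_at all 4 HOXD13 lines (7.82 to 8.10) were above the vectors (7.68 to 7.74), and at 222164_at the lines (6.18 to 6.53) overlapped them (6.06 to 6.18). The 4 differences were 0.36, -0.02, 0.26 and 0.23 in this order of probe sets, with limma adjusted p between 0.367 and 0.973, so none passed the test. The split of 211535_s_at, with the mixed population and clones a and b above and clone c below the vectors, was shared by 18.5% of all probe sets tested, and that probe set passed without clone c (0.62, adjusted p 0.00718). In the HOXD9 lines clone c was the highest line at all 4 FGFR1 probe sets, for example 7.87 against 7.21 to 7.32 in the other lines and 7.12 to 7.20 in HA vector cells at 211535_s_at. HOXD9 clone a was the lowest at 215404_x_at (6.14) and 222164_at (4.67), against at least 6.78 and 5.50 in the other HOXD9 lines. In these lines 1439 genes of clone c and 619 of clone a lay more than 1 log2 unit from the vector mean, against 5 in the mixed population and 23 in clone b.

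FGFRL1, the receptor without a kinase, gave no call. Probe set 223321_s_at read 5.92, 5.94 and 6.12 in V5 vector cells and 5.91, 6.15, 6.15 and 5.36 in the HOXD13 mixed population and in clones a, b and c, a difference of -0.10 (SE 0.19, limma adjusted p 0.80) whose 95% interval ran from -0.51 to 0.31. In the HA set it read 5.29, 5.18 and 5.38 in vector cells and 5.59, 5.82, 5.22 and 5.72 in the HOXD9 lines, a difference of 0.31 (SE 0.19, adjusted p 0.344). Only clone b overlapped the HA vectors.

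**Figure D2:**
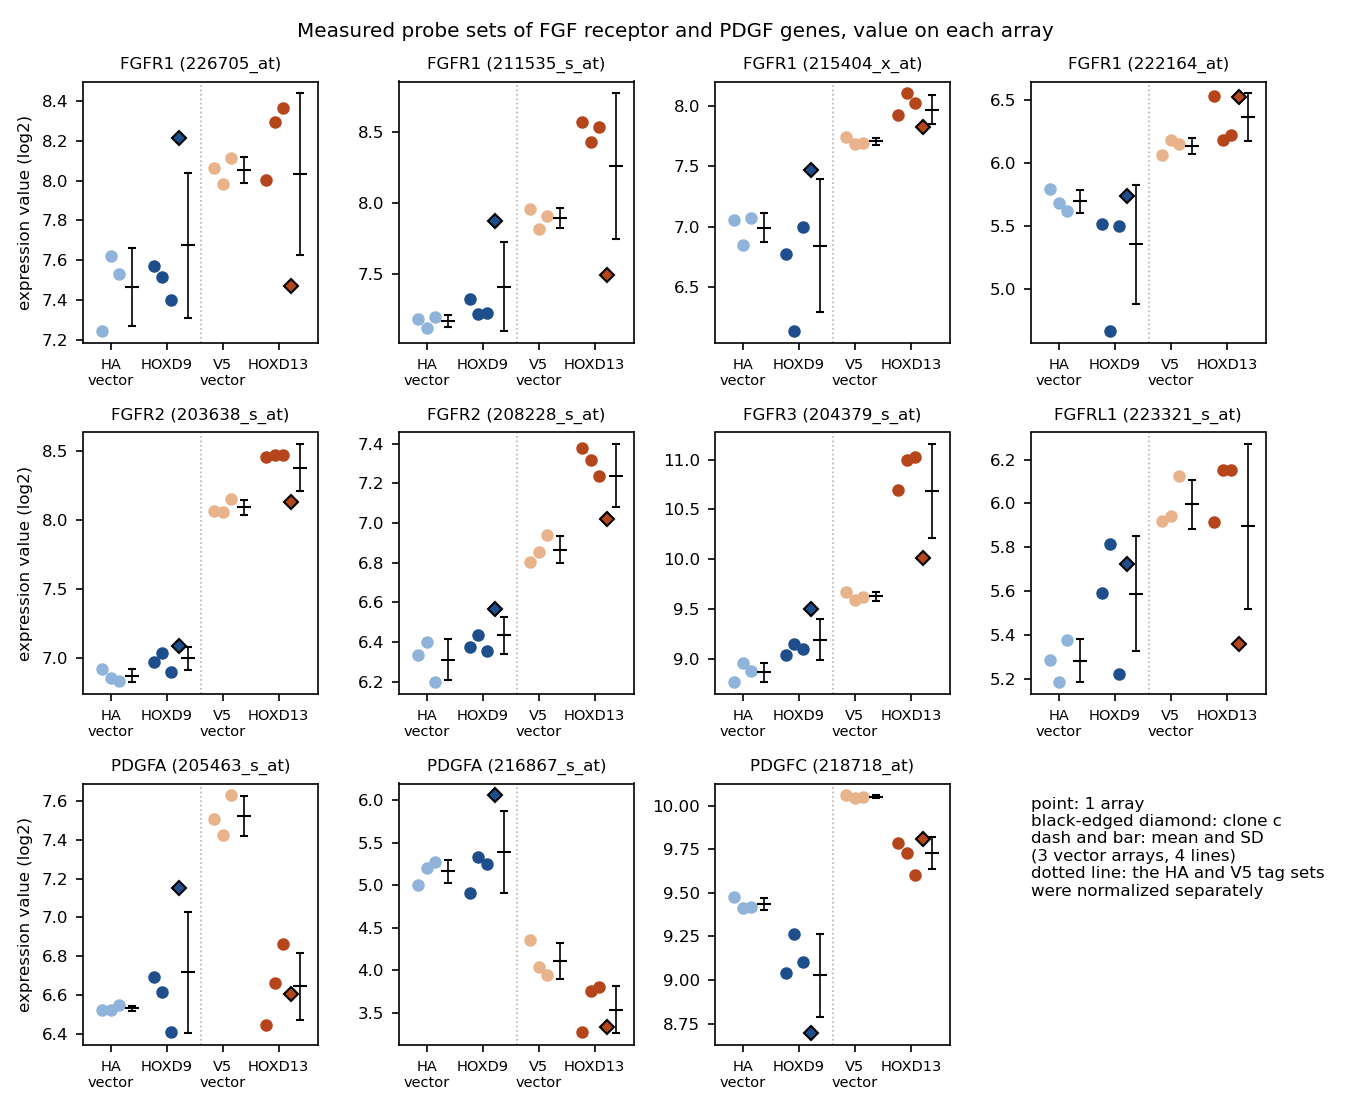
Expression value (log2, vertical axes, 1 panel per tested probe set) on each array of the HA vector, HOXD9, V5 vector and HOXD13 groups; points are arrays, black-edged diamonds are clone c, and dashes with bars are the mean and SD of 3 vector arrays or 4 lines. FGFR3 in HOXD13 (10.01 to 11.03) lies above its vectors (9.59 to 9.67), and PDGFA 205463_s_at (6.44 to 6.86) lies below them (7.43 to 7.63).

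PDGFA, the ligand that forms PDGF-AA, fell in the HOXD13 lines. Probe set 205463_s_at read 7.51, 7.43 and 7.63 in V5 vector cells and 6.44, 6.66, 6.86 and 6.61 in the HOXD13 mixed population and in clones a, b, c in turn. The groups were 7.52 ± 0.10 (SD, n = 3) and 6.64 ± 0.17 (SD, n = 4) and did not overlap, and clone c sat among the other lines. The log2 fold change was -0.88 (SE 0.16, 95% interval -1.21 to -0.54), a ratio of 0.544, with a limma adjusted p of 0.00631. The call held when any 1 of the 14 arrays was left out (adjusted p 0.000763 to 0.0458) and under the 9 alternatives (0.00216 to 0.0179). Probe set 216867_s_at read 4.35, 4.03 and 3.94 in V5 vector cells and 3.27, 3.75, 3.80 and 3.33 in the HOXD13 lines. It passed the filter through HA-set arrays alone. Its groups did not overlap either, and its difference of -0.57 (SE 0.23) had an adjusted p of 0.143.

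In the HOXD9 lines PDGFA did not pass the test. Probe set 205463_s_at read 6.52, 6.52 and 6.55 in HA vector cells and 6.69, 6.62, 6.41 and 7.15 in the HOXD9 mixed population and in clones a, b and c, with clone b below and the other lines above the vectors. The difference was 0.19 (SE 0.16, adjusted p 0.468, 95% interval -0.15 to 0.52). Probe set 216867_s_at read 5.01, 5.21 and 5.28 in the vectors and 4.91, 5.34, 5.25 and 6.06 in the HOXD9 lines, a difference of 0.23 (SE 0.23, adjusted p 0.552). The HOXD13 effect on 205463_s_at was below the HOXD9 effect, and this difference passed the test (-1.06 on the log2 scale, SE 0.22, limma adjusted p 0.0161). This was the only call among the 11 probe sets for the difference of effects, against 6.56% of all probe sets tested. Its adjusted p was 0.0501 without HA vector replicate 1, 0.0512 without HA vector replicate 2 and 0.0595 without V5 vector replicate 3.

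PDGFC, a ligand that needs to be cleaved by proteases such as plasmin before it binds its receptor, was tested with 1 probe set, 218718_at, which lay below the vectors in every HOX line without passing the test in either comparison. It read 10.06, 10.04 and 10.05 in V5 vector cells and 9.78, 9.73, 9.60 and 9.81 in the HOXD13 mixed population and in clones a, b and c, a difference of -0.32 (SE 0.12, limma adjusted p 0.121). This difference passed without HOXD9 clone c (adjusted p 0.0267), and at gene level also without HOXD13 clone c (0.0441) and with a weight per group (0.0463). HOXD9 arrays do not enter this difference. Without HOXD9 clone c it stayed at -0.32, and only the spread shared by all groups changed. In the HA set 218718_at read 9.48, 9.41 and 9.42 in vector cells and 9.04, 9.26, 9.11 and 8.70 in the HOXD9 lines, a difference of -0.41 (SE 0.12, adjusted p 0.176, unadjusted p 0.00510). Neither comparison had an overlap of lines and vectors, and 1.57% of all probe sets tested lay below their vectors in all 8 lines. The difference between the HOXD13 and HOXD9 effects was 0.09 (95% interval -0.28 to 0.46). Probe set 222719_s_at, which reached 5 on 1 array only, read 4.82, 4.99 and 5.30 in V5 vector cells and 4.67, 4.50, 4.66 and 4.13 in the HOXD13 lines, also without overlap. In the HA set the same probe set read 4.39, 3.86 and 3.83 in vector cells and 3.76, 4.29, 3.74 and 3.94 in the HOXD9 lines, which overlap, so the separation of the HOXD9 lines at 218718_at was not seen there.

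**Figure D3:**
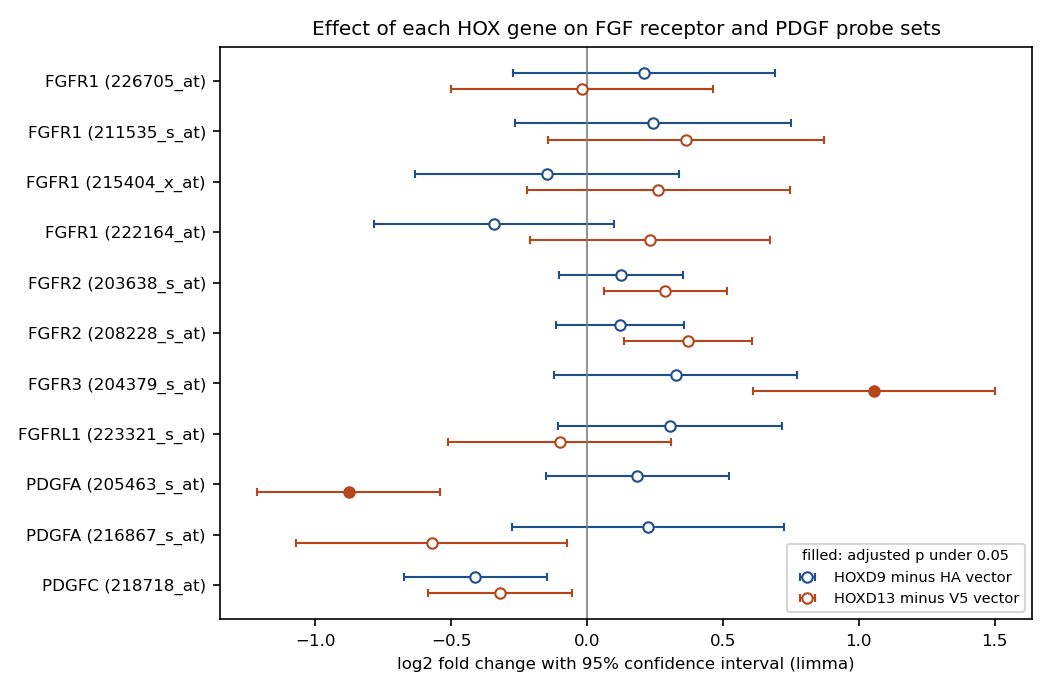
Log2 fold change (horizontal axis) of each tested probe set with its 95% confidence interval from limma, for HOXD9 minus HA vector (blue) and HOXD13 minus V5 vector (orange); filled symbols have an adjusted p under 0.05. Only FGFR3 at 1.06 and PDGFA 205463_s_at at -0.88, both in HOXD13, are filled.

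Over the 11 probe sets, HOXD13 gave 2 calls, FGFR3 higher and PDGFA lower, and 6 probe sets had an unadjusted p under 0.05, against 25.1% of all. Among all 19816 probe sets 8.68% were called, 2.49% higher and 6.19% lower. The count of 2 in 11 was not tested against that share. At the level of genes, each read by its brightest probe set, the same 2 of 6 were called, against 10.6% of 10349 genes, with adjusted p of 0.00805 for FGFR3 and 0.00491 for PDGFA. The median log2 fold change was 0.23 over the 11 probe sets and -0.02 over all probe sets tested, and -0.06 over the 6 genes and -0.03 over all genes. Without HOXD13 clone c 5 of the 11 were called (FGFR3, PDGFA, both FGFR2 probe sets and FGFR1 211535_s_at) against 32.8% of all probe sets. Non-overlap was found above the vectors for FGFR3, FGFR2 208228_s_at and FGFR1 215404_x_at (3 of 11, against 8.60% of all) and below them for both PDGFA probe sets and PDGFC (3 of 11, against 18.1%). In HOXD9, FGFR3 and FGFR1 211535_s_at lay above all vectors (2 of 11, against 18.0%) and PDGFC below them (1 of 11, against 14.2%). HOXD9 gave 0 calls among the 11 by limma, against 0.0303% of all probe sets (6 of 19816), with 1 of 11 (PDGFC) at an unadjusted p under 0.05 against 20.6% of all. At gene level PDGFC was called in HOXD9 when HOXD13 clone c was left out of the fit (adjusted p 0.0468, against 10.6% of genes). The medians in HOXD9 were 0.19 over the 11 and 0.04 over all.

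The lines of a HOX gene differed among themselves, and clone c stood apart at several probe sets. Relative to the V5 vector mean, FGFR3 was shifted by 1.07, 1.37, 1.40 and 0.38 in the HOXD13 mixed population and in clones a, b and c. FGFR1 211535_s_at was shifted by 0.68, 0.54, 0.64 and -0.40, so clone c was on the other side of the vectors. PDGFA 205463_s_at was shifted by -1.08, -0.86, -0.66 and -0.91, where clone c was lower than clones a and b. The ACTB difference deviated by 0.57 in clone c against -0.10, -0.23 and -0.41 in the other 3 lines, and clone c was the lowest of the 4 lines at 45.9% of all probe sets. With that difference as a covariate the FGFR3 change was 1.02 (limma adjusted p 0.000787) and the PDGFA change -0.88 (adjusted p 0.00216). In HOXD9, FGFR3 was shifted by 0.17, 0.28, 0.23 and 0.63, PDGFC by -0.40, -0.17, -0.33 and -0.74 and PDGFA by 0.16, 0.08, -0.12 and 0.62, with clone c farthest from the vectors each time. HOXD9 clone c was the highest of its 4 lines at 41.3% of all probe sets.

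**Figure D4:**
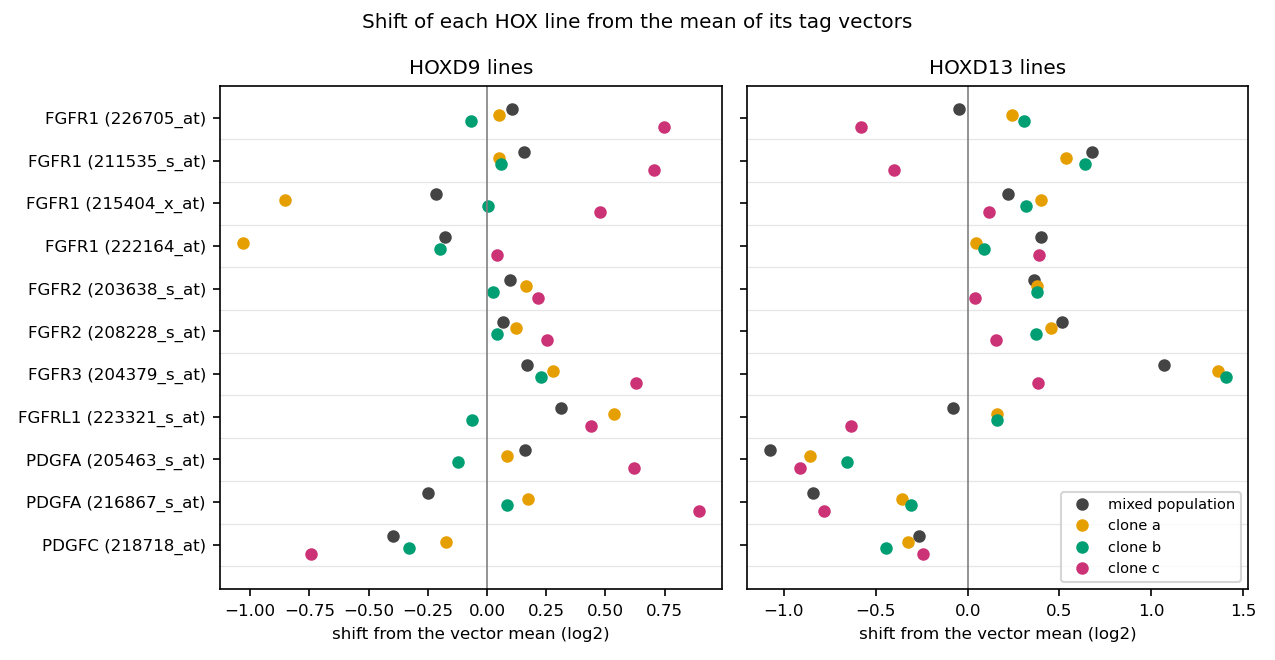
Shift of each HOX line from the mean of the 3 vector arrays of its tag (log2, horizontal axes) for the 11 tested probe sets, HOXD9 on the left and HOXD13 on the right, coloured by line; clone c is pink. In HOXD13, clone c is at 0.38 for FGFR3 and at -0.40 for FGFR1 211535_s_at, while for PDGFA 205463_s_at all 4 lines lie between -1.08 and -0.66.

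Across the 8 HOX lines, the shifts of FGFR2 and FGFR3 went together, with a Pearson r of 0.93, while those of FGFR3 and PDGFA had an r of -0.57. Other pairs had a larger r in size than the latter, among them FGFR1 with PDGFC (-0.80) and FGFR1 with FGFRL1 (0.79). The genes with the pattern most like FGFR3 over these 8 lines were PCDH19, a protocadherin, HEXIM1, an inhibitor of the elongation factor P-TEFb, and LATS2, a kinase of the Hippo pathway, each with r = 0.99. Those most like PDGFA were STK40 (r = 0.996), MIPEP, a mitochondrial peptidase, and NANOS1, an RNA-binding protein (both 0.99). These values are descriptions over lines that share vector means and parent populations, and r exceeded 0.9 for 329 of 10348 genes with FGFR3 and for 1053 with PDGFA. Each r pools the lines of both HOX genes, so it includes the gap between HOXD9 and HOXD13 lines. That gap was 0.73 for FGFR3 and -1.06 for PDGFA. Within a HOX gene, 1 line was highest for both: HOXD9 clone c (0.63 and 0.62) and HOXD13 clone b (1.40 and -0.66). No r was computed within a HOX gene. Among the 3 genes on either side of FGFR3 on chromosome 4, the tested ones were TACC3, LETM1 and NSD2, with HOXD13 differences of 0.27, 0.03 and -0.09 (limma adjusted p 0.426, 0.946 and 0.575), none called. No neighbour of PDGFA on chromosome 7 was tested (0 of 6).

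Genes around the receptors were then read at gene level from 5 lists, where 2.88% of all genes were called higher and 7.76% lower in HOXD13. Differences are again on the log2 scale. Of 22 FGF ligands 5 were tested and 0 were called by limma, 2 of them at an unadjusted p under 0.05, against 27.0% of all genes. FGF9 was above the vectors in all 4 HOXD13 lines (6.56 ± 0.14, SD, n = 3, against 7.19 ± 0.20, SD, n = 4), which held for 8.59% of all genes. The difference was 0.63 (limma adjusted p 0.0878). FGF11, under the filter value in the V5 set, lay below the vectors in all 4 lines (difference -0.31, limma adjusted p 0.161). Of the coreceptors, binding proteins and heparan sulfate genes 21 were tested, 1 was called higher and 2 lower, and the median difference was 0.06. HS6ST1, which sulfates heparan sulfate, rose by 0.76 (adjusted p 0.0379) with shifts of 0.83, 1.02, 1.10 and 0.08 in the HOXD13 mixed population and in clones a, b and c. FLRT2, a membrane protein that binds FGF receptors, fell by 0.93 on the log2 scale (-0.93, limma adjusted p 0.0390). IL17RD, the FGF antagonist also called SEF, fell by 0.55 (limma adjusted p 0.0187). All 4 lines lay below the vectors for both, as they did for 5 of the 21 genes tested in this list, against 20.3% of all genes.

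Among 14 tested genes of other PDGF and VEGF ligands and receptors 0 were called in HOXD13 by limma, 4 of them at an unadjusted p under 0.05, with a median of 0.15. KIT, a receptor of the same class as PDGFRA, differed by 0.33 (limma adjusted p 0.0712) and FLT1 by 0.37 (limma adjusted p 0.0683). Of the 14, 4 lay above the vectors in all 4 lines and 1 below them, against 8.59% and 20.3% of all genes. PDGFB, PDGFD and PDGFRB reached at most 2.73, 2.47 and 2.29 and were not tested. Among 27 genes of receptor-proximal signalling 1 was called higher and 1 lower. GRB14, an adaptor that binds receptor tyrosine kinases, rose by 0.64 (SE 0.10, adjusted p 0.00339), from 5.54 ± 0.11 (SD, n = 3) to 6.19 ± 0.09 (SD, n = 4), and STAT5B, a transcription factor that these receptors can activate, fell by 0.46 (adjusted p 0.0431).

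The last list held genes induced by ERK, which FGF and PDGF receptors activate as do other signals. Of its 13 tested genes, 11 passed the filter also without the HOXD13 lines, and of these 1 rose in HOXD13 and 0 fell, with a median difference of 0.55 against -0.03 over all genes. The 1 was MYC, which rose by 1.65 (SE 0.47, adjusted p 0.0397). The other 2, the transcription factor FOS and the ERK phosphatase DUSP6, reached the filter value on HOXD13 arrays alone, so they had to be high there to be tested, and neither was called without the filter (adjusted p 0.0609 and 0.0703). FOS read 3.96, 4.11 and 4.08 in V5 vector cells and 6.87, 7.37, 8.0 and 4.28 in the HOXD13 mixed population and in clones a, b and c (difference 2.58, SE 0.61, adjusted p 0.0192). DUSP6 read 4.24, 4.50 and 4.4 in the vectors and 5.25, 5.57, 6.13 and 4.56 in these lines (difference 1.0, SE 0.26, adjusted p 0.0270). With both included the median of the 13 genes was 0.87, 1.19 and 1.72 in the mixed population and clones a and b and -0.19 in clone c, the line with the ACTB deviation of 0.57. MYC was shifted by 2.04, 2.38, 2.39 and -0.19 in this order, so clone c did not share its rise. Without clone c 11 of the 13 were called higher, against 18.9% of all genes. FOS and DUSP6 were among them and entered the 13 through their high values in HOXD13, so the filter favoured this count. MYC, FOS and DUSP6 were not called with the V5 set fitted alone, nor MYC without the filter (adjusted p 0.112). With 1 of the 14 arrays left out in turn, the call of GRB14 held each time. Those of FOS and DUSP6 held 9 times and were lost without any 1 of the V5 vector replicates, the HOXD13 mixed population or HOXD13 clone a (adjusted p up to 0.0755 and 0.113). IL17RD held 8 times and was lost without the same arrays or HOXD13 clone b (up to 0.0967). MYC, HS6ST1, FLRT2 and STAT5B held 4 times, being lost also without any HA vector replicate or the HOXD9 mixed population (up to 0.124, 0.135, 0.132 and 0.148). In HOXD9 0 genes of the 5 lists were called by limma, of 80 tested, against 0.00966% of all genes, with 16 at an unadjusted p under 0.05, against 23.5%, and list medians from -0.09 to 0.22.

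**Figure D5:**
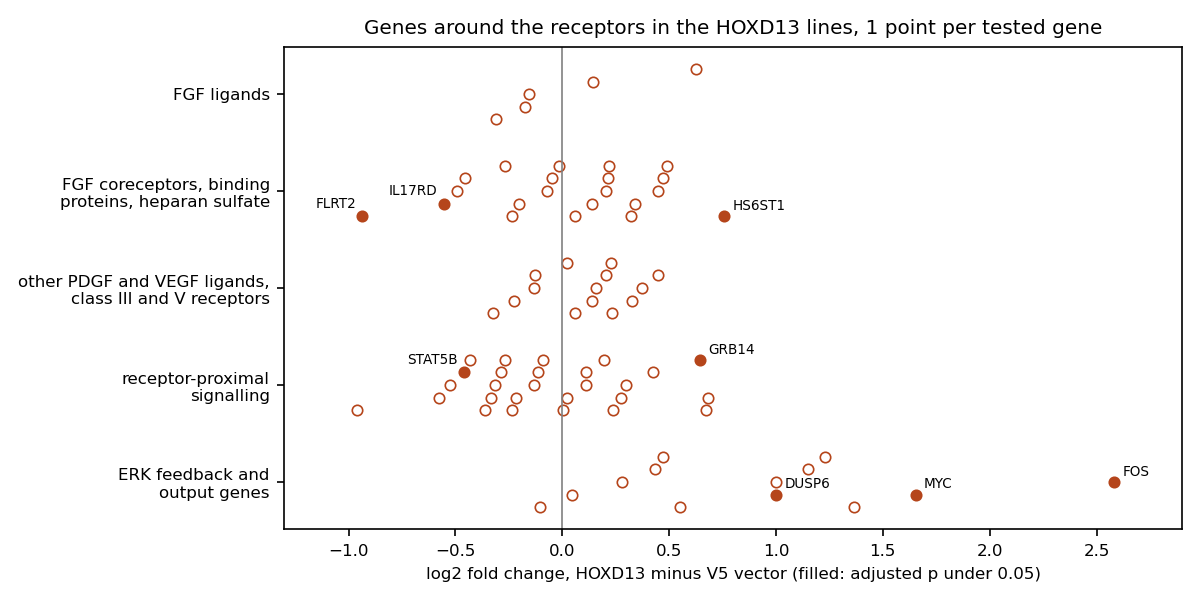
Log2 fold change of HOXD13 lines against V5 vector cells (horizontal axis), 1 point per tested gene, in 5 lists of genes around the receptors; filled points have a limma adjusted p under 0.05 and are named. In the ERK list MYC is at 1.65, while FOS at 2.58 and DUSP6 at 1.0 passed the filter through HOXD13 arrays alone, and the median of the other 11 genes is 0.55.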

How the data were processed

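RNA of 14 HEK293 cultures was hybridised to Affymetrix arrays. The deposited values are log2 expression values, 1 per probe set, made by the authors with GCRMA per the submitters' processing notes; its version is not given in the sources used here. Values between 1.83 and 15.5 gave the log2 scale. GCRMA corrects background by probe sequence, equalises the distributions of arrays and summarises probes. Sorted values were identical within a tag set to within 0.00195 and differed between sets (upper quartile 6.27 and 7.02), so the sets were normalized separately and differences are relative to each set. Depth does not apply to arrays, and precision is limited by how many there are.

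Gene symbols came from the platform annotation (41097 probe sets with 1 symbol, 1801 with several, 11777 with none) and were updated through RefSeq genes of GRCh38.p14, which matched 41043. Probe sets with a value of at least 5 on at least 3 arrays were fitted with limma 3.58.1 (R 4.3.3; lmFit and eBayes on 4 group means, two-sided, 10 residual degrees of freedom), with Benjamini-Hochberg adjustment and a threshold of 0.05. The 4 groups shared 1 estimate of the spread for each probe set. Genes in lists were read by their brightest probe set. The fit was checked on simulated data for all 3 comparisons. The simulated arrays were independent and had the same spread in all groups. This check therefore cannot speak to the unequal spread of vectors and lines, or to the shared origin of the lines. Alternatives were the filter, the tag set fitted alone, trend and robust estimation, group weights, the ACTB covariate, joint quantile normalization, centring each array on its median, the mean of a gene's probe sets and each array left out. Figures were drawn with matplotlib 3.10.9.

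The text names every member, up to 3 called genes in each direction per list, up to 3 genes on either side of called members and the 3 genes most like each of them. The genes and lists were chosen with earlier results of these data known, so counts over them are no independent evidence. FGF9, FGF11, KIT, FLT1, PDGFB, PDGFD and PDGFRB are named outside this rule, after their values were seen.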

Additional observations from a re-analysis of the deposited data

Results flagged for a closer look

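In 38 groups of 4 lines, Dixon's test looked for a line apart from the other 3, which chance would give in about 1 group in 20. It found 4, all of clone c. The groups share lines, and some genes were examined because they were called in these data. The share over all probe sets was not computed, so the count is no result about these genes and cannot be set against chance. HOXD13 clone c was the lowest of its 4 lines at 45.9% of all probe sets, and HOXD9 clone c the highest at 41.3%. FGFR1 211535_s_at was 7.87 in HOXD9 clone c, with the nearest HOXD9 line at 7.32. The same probe set was 7.49 in HOXD13 clone c, with the nearest HOXD13 line at 8.43. FGFR2 203638_s_at was 8.13 in HOXD13 clone c against 8.45 in the nearest line. MYC was 9.64 in HOXD13 clone c against 11.87 in the nearest line.

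The effects of the HOX genes differed by a test of the difference itself at PDGFA 205463_s_at, where the HOXD13 effect minus the HOXD9 effect was -1.06 (limma adjusted p 0.0161 over all probe sets). It also differed at GRB14, by 0.60 (adjusted p 0.0242 over all genes), and at STAT5B, by -0.74 (adjusted p 0.0269). Of the list genes, only those called in HOXD13 on these same arrays were examined here, which favoured a difference. Over all genes 9.63% were called for the difference of effects. GRB14 was under the filter value in the HA set, at 3.94 ± 0.01 (SD, n = 3) in vector cells and 3.98 ± 0.16 (SD, n = 4) in HOXD9 lines.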

How the results depend on the processing

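No paired analysis was possible because the numbers of the vector replicates have no counterpart among the mixed population and clones of the HOX lines. The count of called probe sets in HOXD13, 2 of 11, became 1 with the V5 set fitted alone and 4 with the ACTB covariate (both FGFR2 probe sets added). It became 5 with the 3 arrays left out whose ACTB difference deviated most, an alternative chosen after seeing the data. With 1 array left out in turn it ran from 1 to 5, and that of called genes from 2 to 4; the count was 5 without HOXD13 clone c and without HOXD9 clone c, the latter with PDGFC 218718_at among those gained. For the difference of effects, 1 call became 2 with the ACTB covariate or with those 3 arrays left out (FGFR3 added, 0.87 in both), and ran from 0 to 2 with 1 array left out. HOXD9 calls ran from 0 to 1 for genes and stayed at 0 for probe sets. Calls over the whole array moved with the setting too, so the changing counts among the 11 are no result about these genes alone. Without HOXD13 clone c, for example, 32.8% of all probe sets were called in HOXD13. Over all probe sets, HOXD13 gave 1721 calls (1112 to 5761 over alternatives, 371 to 6496 with 1 array left out), HOXD9 6 (1 to 167 and 1 to 787) and the difference 1299 (735 to 3444 and 340 to 3688). Over all genes, these counts were 1101 (890 to 3259 and 303 to 3701), 1 (0 to 102 and 0 to 1100) and 997 (838 to 2058 and 384 to 2299). The difference of a HOX gene from its vectors stays the same when an array of the other tag set is left out. Only the spread shared by all groups, and so p, changes then. Where the fit or the set of arrays changed a call otherwise, the cause was not tested. Changes of direction occurred only in uncalled values: FGFR1 read by the mean of its probe sets was -0.00907 in HOXD9, 0.21 in HOXD13 and 0.22 for the difference; without the 3 arrays FGFR1 215404_x_at was 0.0885 in HOXD9, and in HOXD13 FGFR1 226705_at was 0.10 and FGFRL1 0.0379. With 1 array left out, FGFR1 226705_at ran from -0.13 to 0.17 and FGFRL1 from -0.19 to 0.0781 in HOXD13, FGFR1 215404_x_at from -0.35 to 0.0885 in HOXD9 and the PDGFC difference of effects from -0.0195 to 0.17. Without the filter HS6ST1, FLRT2, STAT5B, DUSP6, FOS and MYC lost their calls (adjusted p 0.0609 to 0.112), and FGFR2 208228_s_at gained one with the stricter filter (0.0459) and joint quantile normalization (0.0495). With the V5 set alone HS6ST1, DUSP6, FOS and MYC lost theirs.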
